A study of Mus musculus with 8 samples.

Results

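Peaks of N6-methyladenosine (m6A) on the mRNAs of 10 Krüppel-like factors (Klf2, Klf3, Klf4, Klf5, Klf6, Klf7, Klf9, Klf10, Klf13 and Klf15) are described here. A peak was assigned to a gene when its summit, the base of highest enrichment, fell in an annotated exon (GENCODE M21, genome build GRCm38), and the 10 genes were taken from the 55450 genes of that annotation. They held 98 summits over 4 peak lists. No summit lay in an exon of another gene as well. Overlapping peak intervals of the 4 lists were merged into regions, and the KLF genes held 16 of the 11361 regions.

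The cells were primary vascular smooth muscle cells (VSMCs), grown out from the descending aorta of adult C57BL/6J mice and transduced with lentivirus. The virus expressed either shCTR, a nontargeting control short hairpin RNA, or shMettl14, a hairpin against Mettl14, which encodes a subunit of the m6A writer complex. Both groups therefore carried a virus and a hairpin, and a single hairpin against Mettl14 was sequenced. Fragmented total RNA was sequenced before (input) and after pulldown with an anti-m6A antibody (IP), in replicates A and B of each group, which gave 4 IP and 4 input samples. Nothing in the labels says that A and B came from separate cultures or animals, so the p-values below measure only the spread between these samples, which may be technical.

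Krüppel-like factors are transcription factors that bind GC-rich and CACCC promoter elements through zinc fingers at their C-terminal end. In smooth muscle Klf4 opposes the contractile gene program that myocardin and serum response factor maintain, and Klf5 is known for promoting proliferation. Klf2, Klf4, Klf5, Klf6 and Klf7 form a branch that mostly activates transcription, Klf3 recruits the corepressor CtBP, and Klf9, Klf10 and Klf13 recruit Sin3A. m6A is written mostly at the DRACH sequence, often near stop codons and in long exons, and is known to alter the decay of the mRNA that carries it.

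For the 7 mRNAs with a peak in every list, the DRACH site nearest to the median position of the strongest summit over the 4 lists is printed for the strongest region. The strongest summits of single lists lay 1 to 98 nt from the printed site in 6 of these mRNAs. In Klf9 they were spread over its 3′ UTR, 128 to 563 nt from the printed site, so that site marks the middle of a broad region and lies under none of them. DRACH is A, G or T, then A or G, then A, C, and finally A, C or T. It was searched on the sense strand of the transcript and is printed in capitals, 5′ to 3′, with the candidate A in the middle and its flanking bases in lower case. The sequences came from the GENCODE M21 transcripts (GRCm38). A match shows only that these letters are present.
Klf2, 3′ UTR, chr8:72321017-72321037, plus strand: acagagccGGACAagtgtggc
Klf4, 3′ UTR, chr4:55527863-55527883, minus strand: aaatcacaGAACAgatggggt
Klf6, coding sequence, chr13:5864921-5864941, plus strand: cccccagaGGACTctctgatc
Klf7, coding sequence, chr1:64078865-64078885, minus strand: ggcagccgTGACAccagctgg
Klf9, 3′ UTR, chr19:23165551-23165571, plus strand: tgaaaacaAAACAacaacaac
Klf10, coding sequence, chr15:38295962-38295982, minus strand: aagctgccAAACTggcaaatg
Klf13, 3′ UTR, chr7:63890481-63890501, minus strand: tattggagAGACAaggactgc

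The other Klf4 sites were chosen after their values were seen, because the Klf4 mRNA carried several separate summits. They lie near the summits of the 5′ UTR, the later part of the coding sequence and the stop codon.
Klf4, 5′ UTR, chr4:55532036-55532056, minus strand: atacaaagGAACTtttttaaa
Klf4, coding sequence, chr4:55530102-55530122, minus strand: aacagcagGGACTgtcaccct
Klf4, last codons, chr4:55528149-55528169, minus strand: tccaggtcGGACCaccttgcc

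Of the 98 KLF summits, 94 had a DRACH site within 50 nt, and the median distance to the nearest was 9 nt. In single lists the share was 96.2% and 100% for shCTR (A and B) and 90.9% and 100% for shMettl14, against 94.9% to 96.2% of all summits placed on a coding transcript. The commonest methylated form, GGACT, lay within 50 nt of 9.09% to 29.4% of the KLF summits and of 19.7% to 23.6% of all summits. The KLF mRNAs carried 1.35 to 2.24 DRACH sites per 100 nt, with a median of 2.04 over 21625 coding transcripts. Thus the motif lay within 50 nt of nearly all KLF summits, as it did for nearly all summits of the lists. At such a density a window of this width often holds a site wherever it is placed. Positions without a peak were not examined, so the share does not show enrichment of the motif. Klf5 had 63 DRACH sites and no summit.

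The peak lists were shallow and uneven. The IP pileup, which is the number of overlapping fragments at a summit, had a median of 13 to 16 over the 4 lists. The shCTR lists held 11158 (A) and 8655 (B) summits, and the shMettl14 lists held 13675 (A) and 9256 (B). KLF summits were deeper, with a median of 26.5, 23, 20 and 20 fragments in the same order. Only peaks were analysed here, so mRNA levels were not compared, and Mettl14 itself had 0 summits in every list, which left the knockdown unchecked here. In bulk cultures fewer cells of a type and less RNA per cell cannot be told apart. Among smooth muscle markers Lmod1 carried a peak in all 4 lists, Myh11 in 3, and Acta2, Tagln, Cnn1 and Smtn in none. Of 4 endothelial markers, Pecam1 and Cdh5 had a peak in all 4 lists, Kdr in 3 and Tek in none. The highest Cdh5 pileup was 93 and 109 fragments in shCTR and 65 and 70 in shMettl14. That of Lmod1 was 84 and 73 in shCTR and 62 and 52 in shMettl14. Of 4 macrophage markers, Csf1r had 1 summit in shMettl14 B, and Ptprc, Adgre1 and Cd68 had none. The summed summits of the endothelial markers numbered 5 and 6 in shCTR and 9 and 5 in shMettl14. Those of the smooth muscle markers were nearly the same, 5 and 5 in shCTR and 9 and 4 in shMettl14. The presence of a peak depends on both methylation and abundance, and the part of other cell types in the KLF peaks was not tested.

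Of the 10 KLF genes, 9 had a summit in at least 1 list and 7 had one in all 4 lists (Klf2, Klf4, Klf6, Klf7, Klf9, Klf10 and Klf13). Over all 21625 coding genes with a usable transcript these shares were 25.6% and 16.1%. That set was not limited to genes expressed in these cells. Klf15, a glucocorticoid-induced regulator of metabolism, had a summit in both A lists only, with 7 and 9 fragments. Klf3, the CtBP-binding repressor, had 2 summits in shCTR A only, with 12 and 11 fragments, at the 4.33rd and 4.03rd percentile of that list. Among 16 other KLF and SP genes, 5 had a summit in any list and 3 in all 4 lists (Sp1, Sp3 and Sp5). The only Klf gene with a summit among these 16 was Klf11, in 2 lists. The genes in question therefore ranged from several deep peaks in each list to none.

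**Figure D1:**
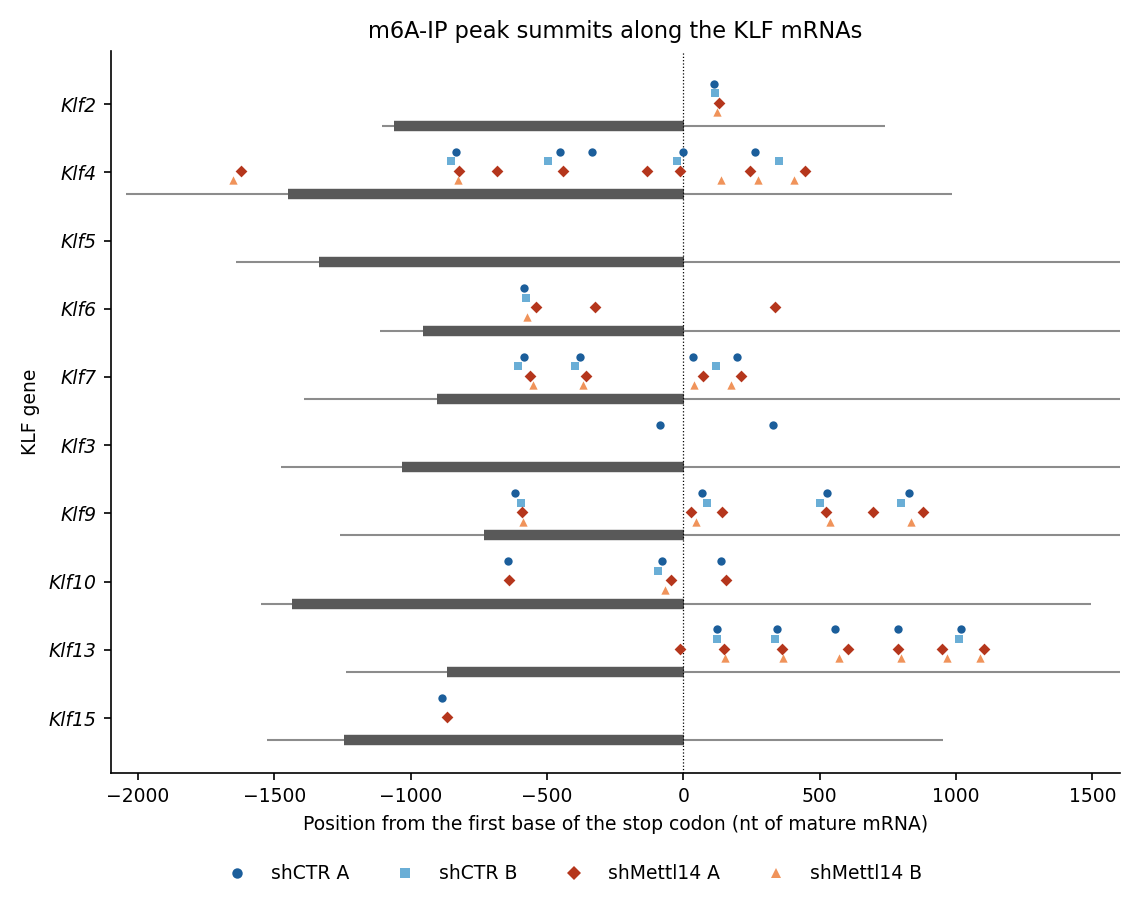
Summits along the mature KLF mRNAs, in nt from the first base of the stop codon (x axis), 1 row per gene. Each point is a summit in 1 of the 4 lists, the thick bar is the coding sequence, thin lines are UTRs, and 3′ UTRs that run past the right edge are truncated. Klf4, Klf7, Klf9 and Klf13 carried several summits in every list, and Klf5 carried none.

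Where the summits lay differed from gene to gene. Of the 98 KLF summits, 56 were in 3′ UTRs, and Klf13 and Klf9 together supplied 20 and 14 of them. In single lists the 3′ UTR held 53.8%, 52.9%, 54.5% and 68.2% of KLF summits (shCTR A, shCTR B, shMettl14 A, shMettl14 B), against 29.7% to 32% of all summits. The share within 200 nt of a stop codon was 34.6% and 35.3% in the shCTR lists and 30.3% and 31.8% in the shMettl14 lists, against 25.4% to 27.1% of all summits. The shMettl14 lists were lower by 3.89 percentage points, with an exact two-sided permutation p of 0.33, which is the smallest that 2 lists against 2 can give. The number of KLF summits was 26 and 17 in the shCTR lists and 33 and 22 in the shMettl14 lists. The difference in means, 6 summits, was smaller than the spread within either group (SD 6.36 and 7.78, n = 2 each, exact permutation p = 0.667). It became 10.5 without shCTR A, 1.5 without shCTR B, 0.5 without shMettl14 A and 11.5 without shMettl14 B. As a share of the list the KLF summits made up 0.233%, 0.196%, 0.241% and 0.238%.

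Klf4 was the most densely peaked of the family. It lies on chr4:55527143-55532466 (minus strand), and its mRNA of 3029 nt has a 5′ UTR of 595 nt, a coding sequence of 1449 nt and a 3′ UTR of 982 nt. It carried 5, 4, 8 and 5 summits in shCTR A, shCTR B, shMettl14 A and shMettl14 B. This came to 1.82 summits per 1000 nt and list, a density above 98.5% of the 3492 genes with a summit in all lists, whose median was 0.483. Klf9 followed with 1.0, Klf13 with 0.821, Klf10 with 0.657, Klf2 with 0.541, Klf7 with 0.489 and Klf6 with 0.355. Broad intervals are split into several summits by the peak caller, so the density counts summits and not separate m6A sites. The Klf4 summits fell into 3 regions, at the stop codon with the 3′ UTR, in the coding sequence and in the 5′ UTR.

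**Figure D2:**
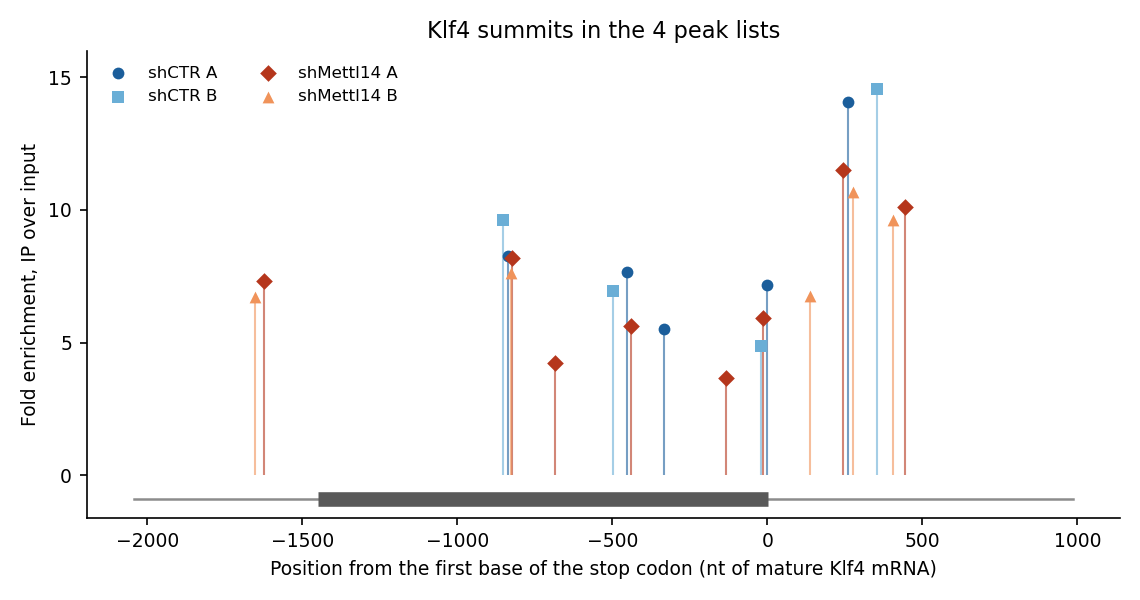
Fold enrichment of IP over input (y axis) at each Klf4 summit, by position from the stop codon in nt (x axis), in the 4 lists. The thick bar is the coding sequence and the thin line the UTRs; the tallest summits lie 244 to 352 nt past the stop codon, where both shMettl14 values are under both shCTR values.

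The strongest Klf4 region spanned the stop codon and 3′ UTR (chr4:55527618-55528365). Its highest summit lay 261, 352, 244 and 275 nt after the start of the stop codon in shCTR A, shCTR B, shMettl14 A and shMettl14 B. The fold enrichment there was 14.1 and 14.6 in shCTR and 11.5 and 10.7 in shMettl14. Both shMettl14 values lay under both shCTR values. A second, weaker summit sat within 22 nt of the stop codon in shCTR A, shCTR B and shMettl14 A, with fold enrichments of 7.16, 4.87 and 5.94. These stood only at the 41st, 9.22nd and 27.8th percentile of their lists. No summit lay that close to the stop codon in shMettl14 B, whose nearest summit was 139 nt after it. At the highest summit the pileup was 48 and 40 fragments in shCTR and 34 and 24 in shMettl14, and the background expected from input was 2.49, 1.82, 2.04 and 1.34 fragments.

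Because depth and background differed between lists, each summit was ranked within its own list. A percentile of 100 is the highest enrichment of a list. The Klf4 stop codon region was ranked by its highest summit, which lay in the 3′ UTR. It stood at the 87.4th and 87.6th percentile in shCTR and at the 82.7th and 71.3rd in shMettl14. The mean was 87.5 in shCTR and 77 in shMettl14, and the groups did not overlap. In the rank test, limma on normal scores of the within-list ranks of the 4929 regions found in all 4 lists, its change from shCTR to shMettl14 was -0.50 ± 0.49 score units (SE), with a 95% confidence interval from -1.52 to 0.52. A score unit is 1 SD of the ranking within a list. The limma adjusted p was 0.999, and it lay between 0.934 and 1 under every alternative. When log2 enrichment was instead expressed relative to the list median, the shMettl14 enrichment was 0.795 times that of shCTR, with an interval from 0.518 to 1.22. A difference in Klf4 enrichment was thus not detectable with 2 lists per group, and the interval covers losses as well as gains.

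The pileup at the highest summit of this Klf4 region, in the 3′ UTR, was set to the median of the common regions in its list. It was 2.09 and 2.0 in shCTR and 1.70 and 1.5 in shMettl14. The input background on the same scale was 2.20 and 1.76 in shCTR and 2.26 and 2.17 in shMettl14. The IP signal was therefore lower in both shMettl14 lists, while the background was higher in shMettl14 on average and overlapped between groups.

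The coding region of Klf4 (chr4:55529783-55530843) carried its highest summit at positions -835 and -853 nt from the stop codon in shCTR and -823 and -826 nt in shMettl14, nearly the same place in all lists. The fold enrichment was 8.26 and 9.63 in shCTR and 8.19 and 7.62 in shMettl14, at the 54.2nd, 64.8th, 58.7th and 44.5th percentile. These ranks overlapped between groups, and the limma adjusted p was 0.999 with a change of -0.23 ± 0.50. A neighboring summit within 50 nt of the GGACT site printed above, which is at -452 nt, lay at -452, -498 and -441 nt in shCTR A, shCTR B and shMettl14 A. It had 29, 19 and 18 fragments and fold enrichments of 7.65, 6.94 and 5.63. It was not listed in shMettl14 B, where the region covered 138 nt, against 1017, 985 and 803 nt in the other lists. The median region covered 375, 372, 364 and 291 nt in the 4 lists, so the median region was also narrowest in shMettl14 B.

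The 5′ UTR of Klf4 held a summit in both shMettl14 lists and in neither shCTR list. It lay at -1623 and -1653 nt in shMettl14 A and B, with 11 and 12 fragments, fold enrichments of 7.34 and 6.73, and percentiles of 48.8 and 33.9. This pattern was found in 1 of 16 KLF regions, against 1.79% of all 11361 regions. No KLF region showed the opposite pattern, a peak in both shCTR lists and in neither shMettl14 list, against 1.71% of all regions. Without shCTR B the Klf3 regions would count as such, which gives 2 of 16, against 11.4% of all regions under that setting. Without shMettl14 B the Klf6 3′ UTR region would join the Klf4 5′ UTR, which gives 2 of 16, against 14.5%. Of the 16 KLF regions, 10 were in all 4 lists, against 43.4% of all regions. With 11 and 12 fragments the 5′ UTR summits were shallower than the median summit, and absence from a list shows only that no peak passed the caller's threshold.

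Klf2, a flow-induced factor of quiescent endothelium, had a single summit in every list, 114 to 129 nt after the stop codon began. Its fold enrichment was 23.1 and 14.5 in shCTR and 11.8 and 16.4 in shMettl14, at the 98.8th, 87.4th, 83.9th and 92.3rd percentile. The position was constant, while the percentile differed more between the replicates of each group than between the group means. The rank change was -0.63 ± 0.53 with a limma adjusted p of 0.999.

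Klf6, an injury-responsive factor, had its main summit in the coding sequence, at -583, -578, -539 and -572 nt from the stop codon. It was among the deepest KLF peaks, with 63 and 50 fragments in shCTR and 51 and 45 in shMettl14, over an input background of 5.01, 4.31, 3.61 and 2.48, the highest among the strongest summits of the 10 KLF regions found in all lists. Its percentile was 73 and 64.7 in shCTR and 81.6 and 84.1 in shMettl14. Both shMettl14 ranks lay over both shCTR ranks, opposite to Klf4, but the change of 0.48 ± 0.50 did not pass the test (limma adjusted p = 0.999). A further Klf6 summit in the 3′ UTR was listed in shMettl14 A only, with 14 fragments over a background of 3.76.

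Klf7, which acts in neuronal development, carried a coding region and a region just after the stop codon. The strongest coding summit lay between -396 and -358 nt from the stop codon, at the 87.4th, 86.3rd, 92.1st and 80.3rd percentile in shCTR A, shCTR B, shMettl14 A and shMettl14 B. The 3′ UTR region, at most 118 nt after the start of the stop codon at its strongest summit, stood at the 85.3rd, 79.2nd, 88.9th and 79.9th percentile. In both regions the groups overlapped and their mean percentiles differed by -0.60 and 2.13.

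Klf9, a hormone-responsive factor, had a coding region and a broad 3′ UTR region with 3 to 5 summits per list. The coding summit was at the 44.3rd and 48.7th percentile in shCTR, the 50.4th in shMettl14 A and the 3.18th in shMettl14 B, where it had 10 fragments against 28, 24 and 29. A single list thus set it apart. Its change was -0.80 ± 0.54, the largest in size of the 10 KLF regions, with a limma adjusted p of 0.993. The strongest summit of the 3′ UTR region was at the 84.7th and 72.6th percentile in shCTR and the 89.9th and 87.2nd in shMettl14. It was again higher in both shMettl14 lists, with a change of 0.40 ± 0.49. It lay 827, 88, 523 and 836 nt after the start of the stop codon in the 4 lists, so these ranks belong to different places. Place by place, the groups overlapped at 799 to 880 nt. Both shMettl14 ranks were higher at 28 to 88 nt and at 501 to 536 nt.

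Klf10, a TGF-β-inducible early gene, had its main summit between -92 and -45 nt from the stop codon. The percentile was 78.6 and 81 in shCTR, 84.4 in shMettl14 A and 50.2 in shMettl14 B, with 22, 23, 19 and 13 fragments. As with the Klf9 coding region, only shMettl14 B stood low. A coding summit at -644 and -639 nt was listed in the A lists alone.

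Klf13, a factor of lymphocytes and heart development, held the KLF region with the highest mean percentile. It covered up to 1310 nt with 3 to 7 summits, all in the 3′ UTR except 1 coding summit of shMettl14 A at -12 nt. Its strongest summit lay 950 to 1089 nt after the start of the stop codon, at the 98.1st, 99.1st, 99th and 99.4th percentile. In shCTR A alone the Klf2 region ranked above it. The enrichment was 21.6 and 24.7 in shCTR and 21 and 25.9 in shMettl14, so the groups overlapped at nearly the top of each list. On the scale of the list medians its pileup was 2.57 and 3.5 in shCTR and 2.1 and 2.56 in shMettl14, and its background was 1.57 and 1.82 in shCTR and 1.17 and 1.0 in shMettl14. The background was lower in both shMettl14 lists, but it was small in all. It came to 1.78 and 1.87 fragments in shCTR and 1.05 and 0.620 in shMettl14. The pileups came close to overlapping, with 2.565 in shCTR A and 2.562 in shMettl14 B, which is less than 1 fragment apart.

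**Figure D3:**
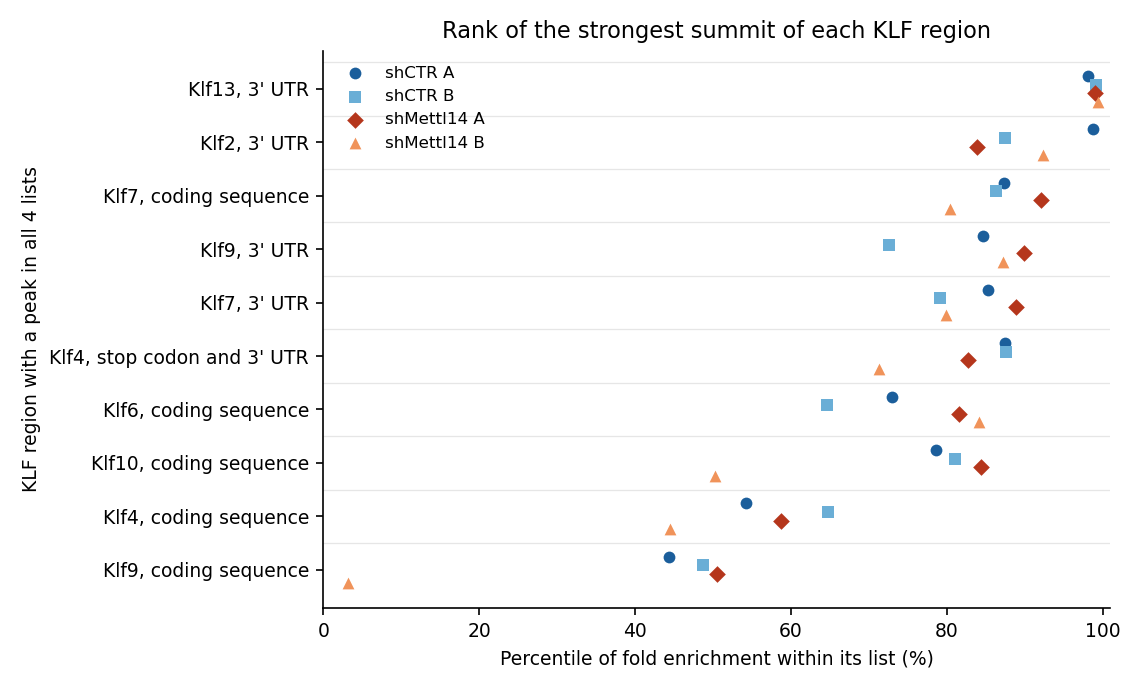
Percentile of the strongest summit of each KLF region found in all 4 lists (x axis, 100% is the highest fold enrichment in a list), 1 row per region and 1 point per list. The shMettl14 points lie under both shCTR points for the Klf4 stop codon region and over both for the Klf6 coding and Klf9 3′ UTR regions. The strongest Klf9 3′ UTR summits of the lists lay 88 to 836 nt after the start of the stop codon.

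Across the 10 KLF regions found in all lists, none passed the limma rank test at an adjusted p under 0.05, and 0% of all 4929 regions did. At an unadjusted p under 0.05 the KLF count was 0 of 10, against 4.93% of all regions. Fisher's exact test on the pileups, with replicates summed, which compares these libraries and not the conditions, also called 0 of 10 after adjustment (0% of all regions) and 0 of 10 at an unadjusted p under 0.05 (2.56% of all regions). The percentile was lower in both shMettl14 lists than in both shCTR lists for 1 of 10 KLF regions, against 14.3% of all regions, and higher in both for 2 of 10, against 17.3%. With 1 list left out there is less to overlap, and the shares over all regions rose as well. The lower KLF regions numbered 5 without shMettl14 A, against 38.1% of all regions, and 2 without any other list, against 26% to 34.2%. The higher ones numbered 6 without shMettl14 B, against 41.9%, and 3 without any other list, against 28.5% to 37.2%. The median change in percentile over the 10 regions was -2.81, with 6 lower and 4 higher. Over all regions the median change was 0.395, and 48.3% were lower.

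The scaled pileup was lower in both shMettl14 lists for 5 of 10 KLF regions (Klf4 stop codon, Klf4 coding, Klf2, Klf10 and, by the narrow margin given above, Klf13), against 16.2% of all regions, and higher in both for 1 (Klf7 3′ UTR), against 15%. When pileups were scaled to their sum over the common regions instead of the median, a setting chosen after the data were seen, the lower regions were 3 (Klf4 stop codon, Klf2 and Klf13), against 14.5% of all regions, and the higher ones 2 (Klf7 3′ UTR and Klf9 3′ UTR), against 19.2%. The scaled background was lower in both shMettl14 lists for 3 of 10 (Klf6, Klf9 3′ UTR and Klf13), against 14.1%, and higher in both for 3 of 10, against 20.1%. The regions of 1 gene share their mRNA and are not independent.

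**Figure D4:**
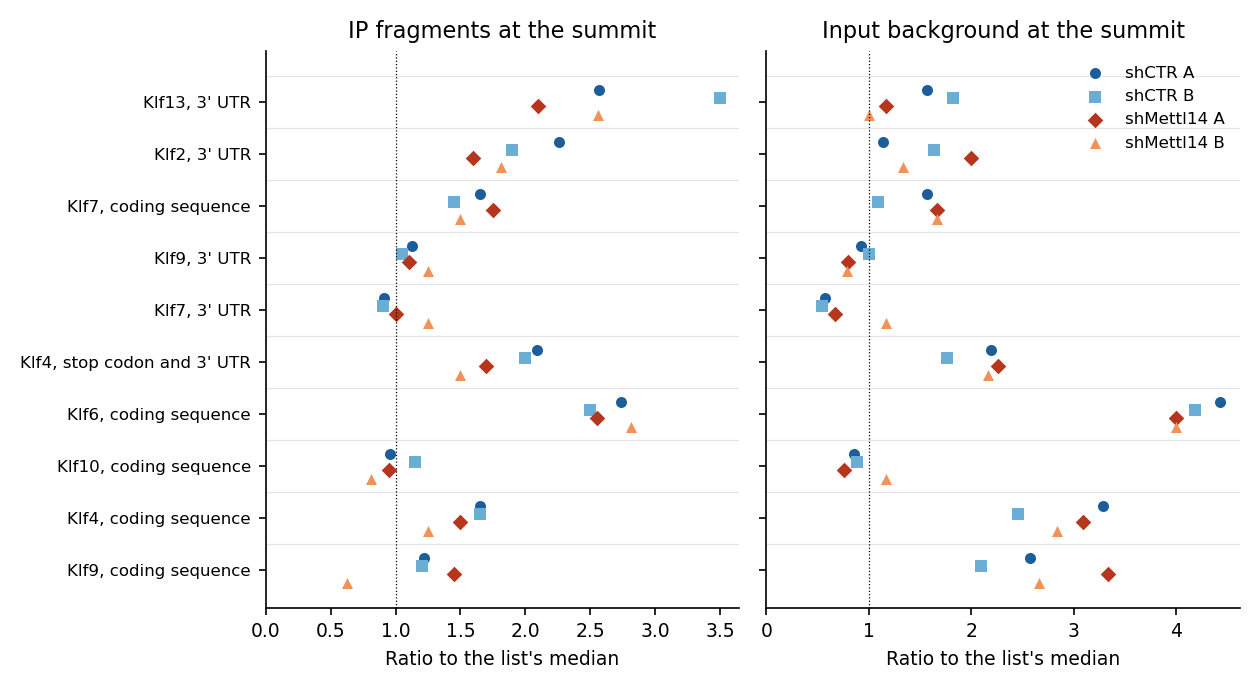
IP pileup (left) and input background (right) at the strongest summit of each KLF region, as a ratio to the median of the 4929 common regions in the same list, 1 point per list. For the Klf4 stop codon region the 2 shMettl14 pileups (1.70 and 1.5) lie under the shCTR pileups (2.09 and 2.0), while the backgrounds overlap.

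Set against its relatives, Klf4 stood lower within the family in the shMettl14 lists. In shCTR A and B the stop codon region of Klf4 was outranked by 2 and 1 of the strongest regions of the other 6 genes, and in shMettl14 A and B by 5 and 5 of them. Near ties lie behind the shCTR ranks, since in shCTR A the Klf7 coding region stood at 87.37 and Klf4 at 87.44, and in shCTR B Klf2 stood at 87.43 and Klf4 at 87.56. Small margins lie behind the shMettl14 A rank too, where Klf2 stood at 83.87, Klf10 at 84.43 and Klf4 at 82.71. The Klf4 percentile exceeded the median of the other 6 genes by 1.40 and 3.91 in shCTR and was -4.46 and -14.4 from it in shMettl14. These 4 differences are a description of 7 genes in 4 lists, and no test was made of them.

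The deposited overlap files, 1 per shRNA, were compared with the lists for the presence of an interval only. All 10 KLF regions found in both shCTR lists had an interval in the shCTR file, and all 11 found in both shMettl14 lists had one in the shMettl14 file. No other KLF region had an interval in these files. Their boundaries were not those of the lists, since several intervals, such as that of the Klf4 5′ UTR, ran beyond the intervals of both replicate lists, so widths and numbers of intervals in them were not compared between shRNAs.

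Of 1922 genes with a summit within 400 nt of the stop codon in every list, those most like Klf4 in the 4 percentiles of that summit were Ptger4 (Euclidean distance 5.18), Ralgds (5.66) and Tef (5.80). Ptger4, a prostaglandin E2 receptor, stood at the 86.3rd and 86.9th percentile in shCTR and the 78th and 73.1st in shMettl14. Of 9 genes around Klf4 in the smooth muscle program, Srf, Mrtfa and Mrtfb, which encode serum response factor and its coactivators, had a summit in all 4 lists, Myh11 in 3, and Myocd, Elk1, Acta2, Tagln and Cnn1 in none. Over all 21625 coding genes with a usable transcript, 16.1% had a summit in every list. The rank test called none of the 4 common regions on the mRNAs of the 9 genes, and 0% of all 4929 common regions. The mean percentile was lower in shMettl14 for 1 of the 4 and higher for 3, while 48.3% of all common regions were lower.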

How the data were processed

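m6A-RIP-seq was performed on input and IP RNA of shCTR and shMettl14 VSMCs (replicates A and B). The authors aligned reads to mm10 with STAR, selected unique alignments using SAMtools and ran MACS2 on every IP sample with the matching input as control; versions and options are not given in the sources used here. The deposited lists, 1 per IP sample, give for each summit the fold enrichment (a ratio of IP to background) and −log10 of the p-value and q-value, with no replicate pooling. The smallest −log10 q was 2.01 in each list. The overlap files give intervals only. No peak ran past the end of a GRCm38 chromosome.

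From these values the whole-number IP pileup and the background of each summit were solved, on the formulas MACS2 uses ((pileup + 1)/(background + 1), Poisson p). A whole pileup matched within 0.001 in −log10 p for 100% of summits. Total read counts were not analysed here. Fisher's exact test on the pileups covers counting error only.

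Summits were placed on the transcript with the longest complete coding sequence per gene (GENCODE M21, GRCm38), and intervals sharing 1 bp were merged. Ranks of fold enrichment within a list were turned into normal scores and tested with limma 3.58.1 in R 4.3.3 (two-sided, Benjamini-Hochberg over 4929 regions, threshold 0.05). Means of 2 lists were compared by exact permutation. Both the recovery and the test were checked on simulated data. All 10 genes were described; other gene lists were counted, and the genes having a summit in all 4 lists were named. The members, lists and tests were chosen with earlier results of these data known.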

Additional observations from a re-analysis of the deposited data

How the results depend on the processing

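No KLF region tested passed the rank test under any of 12 alternatives, which were equal list lengths (8655 top summits each), −log10 q of at least 5, merging from 50 bp shared, other rank measures, Fisher's exact test, leaving out each list, and a fit with the replicate letter as a block. The Klf4 stop codon change kept its direction under all 12 (-0.306 to -0.557 on the rank or log2 scales for other measures and filters, -0.571 to -0.409 without single lists). With equal list lengths or the stricter q, 9 KLF regions were tested, since the Klf9 coding region was no longer in every list. With a replicate block the Klf4 change was -0.502 (limma adjusted p = 0.934), and 0 KLF regions were called. The labels tie the letters to no shared culture or day, and the deviations of shCTR A and shMettl14 A from their group means correlated at 0.0795 over 4929 regions. The difference in KLF summits kept its sign under 8 alternatives but shrank from 6 to 1 when each interval counted once, and ranged from 0.5 to 11.5 without single lists. The share near stop codons stayed lower in shMettl14 under 8 alternatives (-6.42 to -3.06 percentage points), and from -4.65 to -3.14 without single lists. Regions found in the shCTR lists alone numbered 0 to 2 without single lists, the 2 being Klf3 regions once shCTR B was left out. Regions found in the shMettl14 lists alone numbered 1 to 2, the second being the Klf6 3′ UTR once shMettl14 B was left out. Other counts were examined further with settings chosen after the data were seen. The KLF regions with a lower scaled pileup in both shMettl14 lists were 5, were 3 when scaled to the sum, and 5 to 6 without single lists, where the share of all regions was 29.9% to 36.2%. Those with a lower percentile were 1, and 2 to 5 without single lists, and those with a higher percentile were 2, and 3 to 6. Without shMettl14 A the Klf9 coding region had an unadjusted p under 0.05, as did 4.80% of the 5101 regions tested, and did not pass after adjustment. In that limma fit 3 of all regions passed, none of them KLF, and 0 passed in the other limma fits. That fit sets shMettl14 B alone against shCTR and assumes that it varies like the shCTR lists, as every fit without a list does for the lone one. Pileups of 7 to 12 fragments behind the Klf3, Klf15 and Klf4 5′ UTR peaks limit what their absence from a list shows.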
